A study of Homo sapiens with 12 samples.

Results

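The mitochondrial ribosomal protein genes are the nuclear genes named MRPL (large subunit) or MRPS (small subunit) with a number. They were taken here from the array's own annotation: every probe set whose single gene symbol has that form, pseudogenes left out, and for each gene the probe set with the highest mean log2 intensity over the 12 arrays. This gave 75 genes of the 19775 genes named on the array, 48 MRPL and 27 MRPS, read by 140 probe sets. For 38 of the genes there was 1 probe set, and for 37 there were several. MRPL53 and MRPS24 were left out because their probe sets are shared with another symbol, and MRPL45P2, MRPS31P5 and MRPL20-AS1 because they are not such genes.

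The arrays held RNA of MCF10A, a human mammary epithelial line generally described as non-tumorigenic, although the labels give breast cancer as the origin. Cells were WT or 4GKD, in which a doxycycline-inducible shRNA silenced eIF4G1, the scaffold that links the mRNA cap to the ribosome. Each genotype was mock-treated or given 10 Gy from a linear accelerator, and each of these 4 conditions was hybridised as LMW (mRNA on few ribosomes, or light polysomes), HMW (heavy polysomes) and Total (unfractionated RNA), with 1 array apiece. For the WT mock pools the labels state 1 to 3 ribosomes in LMW and 4 or more in HMW; for the others they give the pool names alone. Doxycycline or a control shRNA in WT cells is not stated in the sources used here, so shRNA, drug and loss of eIF4G1 cannot be told apart. With 1 array for each combination, and nothing stating separate cultures, all p-values measure the spread between these samples alone.

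Mitochondria carry their own ribosomes, which make the few membrane proteins encoded by mitochondrial DNA that belong to the respiratory chain. The ribosomal RNAs come from the mitochondrial genome, but every protein of these ribosomes is encoded in the nucleus, translated on cytosolic ribosomes and imported. The cytosolic polysomes studied here therefore show how the mRNAs of one ribosome are loaded onto another. Many of the proteins have bacterial counterparts, and others are found only in mitochondrial ribosomes.

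Promoters of nuclear genes for mitochondrial proteins are known for sites of NRF1, of ETS-family factors such as GABPA, and of YY1, so these letters were searched in RefSeq's promoter windows (GRCh38.p14, 250 bases before to 50 after each start, both strands). A window was found for 67 of the 75 genes, 83 windows in all because some genes have several starts. The YY1 letters AAGATGGC were in 26.5% of the 83 windows, against 2.89% of 35116 windows of all genes and 5.15% of the 12279 windows of genes tested here. The ETS letters CCGGAAG were in 38.6%, against 10.3% and 17.7%. The NRF1 core GCGCANGC was in 31.3%, against 12% and 19.6%. The E-box CACGTG was in 10.8%, against 7.26% and 9.65%, and the letters CCAAT in 33.7%, against 34.6% and 35.2%. The YY1 letters had 21 places in 20 genes, 17 of them in the direction of the gene and 15 starting after the transcription start. The median position of all 21 was 10 bases, counted from the start as base 1. NRF1 matches overlap each other in MRPL17, and an NRF1 and an ETS match overlap in MRPL40. A match is a description of the letters, not evidence of a bound site.

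Genes described below that carry these letters include the following, with the motif in capitals, 5′ to 3′ on the gene's strand. The first group holds the YY1 letters near the start of the gene.
MRPS30, chr5:44808952-44808975, plus strand: cgcgggcaAAGATGGCggcggcca
MRPL42, chr12:93467514-93467537, plus strand: attgaaacAAGATGGCgggttcgt
MRPL50, chr9:101398580-101398603, minus strand: tctcatcgAAGATGGCggcgcgat
MRPL51, chr12:6493226-6493249, minus strand: taaggcccAAGATGGCtgtcttcg
MRPL38, chr17:75904863-75904886, minus strand: ccggagggAAGATGGCggcgccct
MRPS18B, chr6:30617855-30617878, plus strand: cgtacgtcAAGATGGCggcgtctg
The second group holds the ETS letters, capitals as before.
MRPL33, chr2:27771702-27771725, plus strand: ggccgtgccCCGGAAGcagttgtt
MRPS31, chr13:40771208-40771231, minus strand: ggcgccaggCCGGAAGcggaagag
MRPL47, chr3:179604663-179604686, minus strand: cttgagacgCCGGAAGtgacgcta
The third group holds the NRF1 core, read on either strand.
MRPS5, chr2:95121912-95121935, minus strand: tcaccccgGCCTGCGCtgctgcgt
MRPS9, chr2:105038023-105038046, plus strand: ccattagcGCCTGCGCcgtctcta
MRPS2, chr9:135499815-135499838, plus strand: caggctccGCGCACGCtctggggc
The windows of MRPL55, MRPL41, MRPL4 and MRPL1, which are also described in detail, held none of the YY1, ETS or NRF1 letters, and those of MRPL41 and MRPL4 held CCAAT. Genes shown with the same letters moved in different ways in the comparisons that follow: MRPL38 and MRPL42 share the YY1 letters, and their light polysome levels lay on opposite sides of total RNA.

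All 75 genes were at a log2 intensity of at least 6 in all 12 arrays, the limit used to call a gene measured, so every gene entered every test and none was lost to the filter. Their values ran from 7.16 for MRPL2 to 12.67 for MRPS12. EIF4G1 itself was lower in the 4GKD array of each of the 6 pairs that differ in genotype alone, with log2 differences from -1.90 to -3.97. Of 6 measured basal mammary markers, 5 were at 6 or more in all arrays (KRT5 from 11.66 to 13.77), and all measured leukocyte (2) and endothelial (3) markers were below 6 in all arrays. Markers of other cell types were not all low: of 5 luminal markers GATA3 was at 7.28 to 8.07 in all arrays while ERBB3 reached 6.83 and ESR1 6.41, and of 4 fibroblast markers COL1A1 reached 8.78 and PDGFRB 6.67, while PGR, FOXA1, COL1A2 and THY1 were below 6 in all. The remaining basal marker, CDH1, was at 4.58 and 5.27 in the WT LMW arrays and at 9.60 and 9.75 in the 4GKD LMW arrays. WT polysome arrays also moved more with treatment than others: 15.9% of all genes were at least 2-fold higher after 10 Gy in WT LMW and 0.226% in 4GKD LMW. The part of these differences in the results was not tested. Intensities are relative to the RNA put on each array, so fewer cells holding an mRNA and less of it per cell cannot be told apart, nor can a smaller pool.

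In heavy against light polysomes, mitoribosomal protein mRNAs lay mostly on the light side. HMW was lower than LMW for 30 of the 75 genes and higher for 3 in limma (adjusted p under 0.05, 8 arrays, condition as a block). These are 40% and 4% of the genes, where 21.1% and 19.6% of all 10157 genes tested were called lower and higher. Their median difference was -0.30 on the log2 scale, a 1.23-fold lower HMW signal, and that of all genes tested was -0.06. HMW was below LMW in all 4 conditions for 40 genes and above it in all 4 for 7, where 31.3% and 24.2% of all genes tested were so. Grouped by name, the genes were alike in counts, with 20 of 48 MRPL and 10 of 27 MRPS genes lower, and 1 MRPL and 2 MRPS genes higher.

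The genes with the lowest heavy-to-light difference were MRPL55, MRPL41, MRPL4, MRPL38, MRPS16 and MRPS12. MRPL55, a mitochondria-specific large-subunit protein, had log2 intensities of 10.18, 9.57, 9.31 and 9.18 in LMW (WT mock, WT 10 Gy, 4GKD mock, 4GKD 10 Gy) and 9.22, 8.69, 8.53 and 8.35 in HMW. LMW was the higher pool in each condition, and the HMW value of WT mock just passed the lowest LMW value. The fitted difference was -0.86 ± 0.12 (SE), or 1.82-fold, with an adjusted p of 0.00425 in limma.

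MRPL41, another mitochondria-specific protein of the large subunit, read 12.16, 11.54, 11.42 and 11.29 in LMW and 11.35, 10.54, 10.52 and 10.65 in HMW, in the same order. Within each condition LMW was higher, although the pools overlapped across conditions, and HMW minus LMW was -0.84 ± 0.12 (adjusted p 0.00402 in limma). MRPL4, the counterpart of bacterial L4, which lines the peptide exit tunnel, read 11.54, 10.53, 10.89 and 10.80 in LMW and 10.79, 9.78, 10.02 and 9.82 in HMW. Again every pair went the same way, with the WT mock arrays highest in both pools, and the difference was -0.84 ± 0.12 (adjusted p 0.0041). The differences of MRPL38, MRPS16 and MRPS12 were -0.81, -0.79 and -0.78, all called. MRPS12 is the counterpart of the bacterial decoding-centre protein S12.

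The 3 genes called in the other direction were MRPS31, MRPS9 and MRPL1. MRPS31, a mitochondria-specific small-subunit protein, read 8.39, 8.34, 9.09 and 9.05 in LMW and 9.26, 9.69, 9.81 and 10.00 in HMW. HMW was higher in all 4 pairs and the pools did not overlap. Its difference of 0.97 ± 0.15, or 1.96-fold, had an adjusted p of 0.00474 in limma. With the median of its probe sets in place of the strongest, the difference was 0.49 and the adjusted p 0.0505.

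MRPS9, counterpart of bacterial S9 in the small subunit, read 7.35, 8.02, 8.81 and 8.76 in LMW and 8.47, 9.04, 9.52 and 9.43 in HMW. The WT arrays were below the 4GKD arrays in both pools, so the pools overlapped across conditions while every pair rose, by 0.88 ± 0.14 (adjusted p 0.00536). MRPL1, counterpart of bacterial L1, the protein of the mobile L1 stalk, read 8.32, 8.88, 8.91 and 8.48 in LMW and 9.15, 9.61, 9.54 and 9.49 in HMW. Its pools did not overlap, and the difference was 0.80 ± 0.13 (adjusted p 0.00564). The next in order, MRPL19 at 0.60, MRPS22 at 0.41 and MRPL39 at 0.33, did not pass, with adjusted p of 0.0618, 0.0527 and 0.0942.

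By role, all 3 proteins of the stalk that binds translation factors were lower in HMW than in LMW: MRPL12 at -0.73, MRPL10 at -0.66 and MRPL11 at -0.55. Of the 5 listed here around the exit tunnel, MRPL23 at -0.70 and MRPL24 at -0.55 passed, and MRPL22, MRPL47 and MRPL45 lay between -0.10 and 0.07. MRPL4, which lines the tunnel and was called lower at -0.84, was not on this list. Of the large-subunit genes, 9 of 20 without and 11 of 29 with a bacterial counterpart were lower. In the small subunit these were 3 of 9 and 5 of 14. The lists behind these counts do not hold all 75 genes, and MRPL55, lowest of the 75 at -0.86, is in none of them. MRPS30 and MRPS18A are counted with the large subunit, where their proteins sit despite the names.

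**Figure D1:**
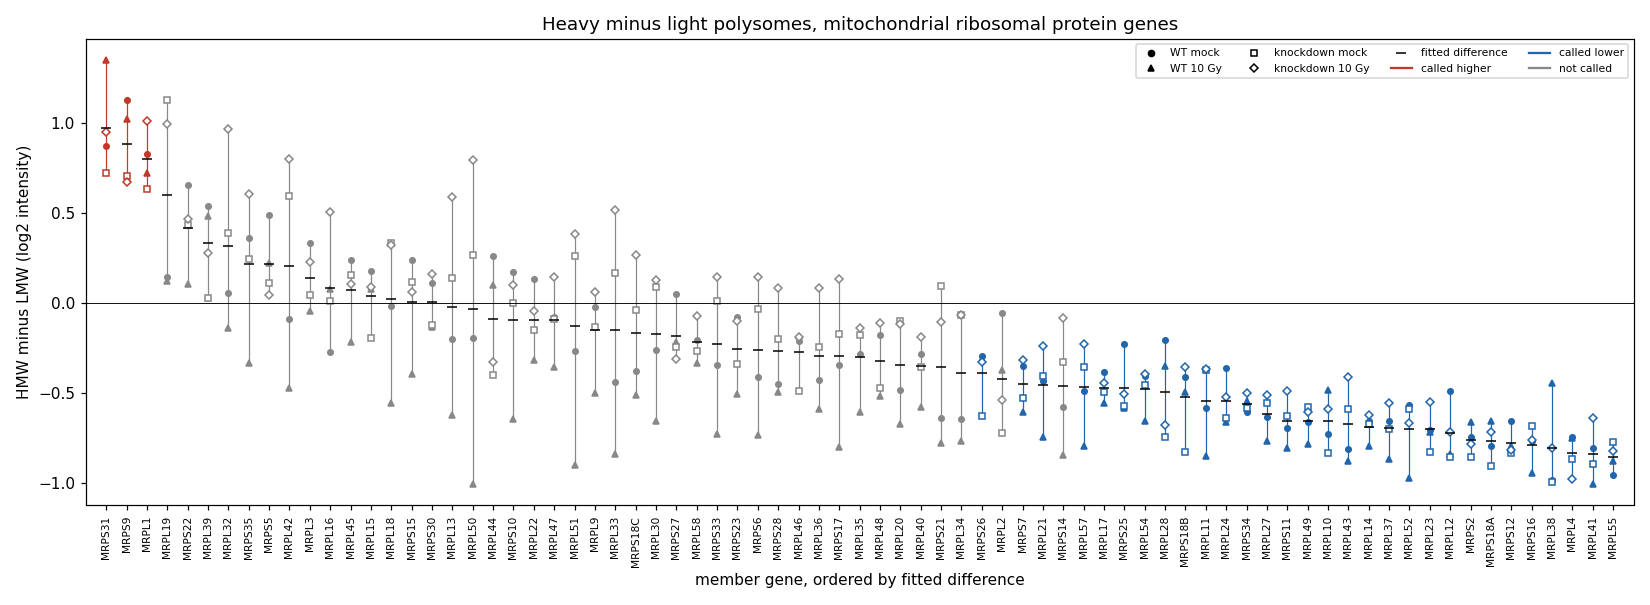
HMW minus LMW in log2 intensity for each of the 75 mitoribosomal protein genes, ordered by the fitted difference; symbols are the 4 conditions, the dash is the fit, and colour marks the limma call. The 30 genes called lower lie at the right, from MRPS26 to MRPL55 at -0.86, with MRPL2 and MRPS14 between them not called. The 3 called higher stand at the left.

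The calls rest on the matched pairs and on the number of conditions. Without the condition block limma called 0 of the 75 genes, and 24 had an unadjusted p under 0.05. Leaving out WT mock left 20 calls and leaving out 4GKD mock left 21.

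Against total RNA, the light pool held more signal for most of these genes. LMW minus Total was above 0 for 52 of the 75 genes and below 0 for 23, where 49.6% of all genes tested were below 0. In limma LMW was called higher than Total for 36 genes and lower for 7, with a median of 0.53 on the log2 scale (1.44-fold). Of all genes tested, 28.5% were called higher and 28.1% lower, with a median of 0.01. HMW was called higher than Total for 16 genes and lower for 8, with a median of 0.16, where all genes gave 17.4% and 18.6% and a median of 0.03. The HMW minus Total median changed sign between conditions: 0.47 in WT mock, 0.27 in WT 10 Gy, -0.11 in 4GKD mock and 0.16 in 4GKD 10 Gy. The comparisons with Total share arrays with each other and with the heavy-to-light comparison, which is their difference, so they are not separate evidence. Across the 3 comparisons, 19 genes were higher in LMW than Total, lower in HMW than LMW and not called between HMW and Total, a pattern of 9.61% of all genes tested. Another 7 were above Total in both pools and still lower in HMW than LMW (3.14% of all genes), and 21 were called in none (23.6% of all genes).

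MRPL4 and MRPS2 were highest in both comparisons with total RNA. The Total values of MRPL4 were 9.0, 8.79, 9.46 and 9.15, below every LMW and HMW value given above. LMW minus Total was 1.84 ± 0.24 (3.58-fold, adjusted p 0.00141 in limma) and HMW minus Total 1.00 ± 0.23 (adjusted p 0.013). MRPS2, counterpart of bacterial S2, read 8.90, 8.61, 8.95 and 8.53 in Total, 11.34, 10.27, 10.45 and 10.17 in LMW, and 10.59, 9.60, 9.59 and 9.38 in HMW. The 3 preparations were in the same order in every condition, and Total overlapped neither pool. LMW minus Total was 1.81 ± 0.24 (adjusted p 0.00141) and HMW minus Total 1.04 ± 0.21 (2.06-fold, adjusted p 0.00844).

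Next in LMW against Total were MRPL38 at 1.45, MRPL28 at 1.45, MRPS18B at 1.37 and MRPS18A at 1.28. In HMW against Total they were MRPL28 at 0.95, MRPS18B at 0.84, MRPL9 at 0.77 and MRPL2 at 0.75. All of these passed. With the median of its probe sets MRPL2 was at 0.27 (adjusted p 0.255 in limma), and it lost the call without 4GKD mock (0.0651) or 4GKD 10 Gy (0.0782). MRPL28 lost it without WT 10 Gy (0.0646). MRPL4 read by a probe set not marked as cross-reacting was at 0.54 in HMW against Total (adjusted p 0.161).

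MRPL42 and MRPL33 were at the other end. MRPL42, a mitochondria-specific protein, read 9.93, 9.89, 10.33 and 10.11 in Total, 8.96, 9.55, 8.49 and 7.92 in LMW, and 8.87, 9.07, 9.08 and 8.72 in HMW. Total was above both pools in every condition, with HMW minus Total at -1.13 ± 0.17 (2.19-fold, adjusted p 0.00304 in limma) and LMW minus Total at -1.34 ± 0.33 (adjusted p 0.00965). The pools themselves changed order between genotypes, LMW being the higher in WT and HMW in 4GKD.

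MRPL33, a short protein with a bacterial counterpart, read 10.94, 10.98, 11.25 and 11.28 in Total, 10.14, 10.87, 10.06 and 10.02 in LMW, and 9.70, 10.03, 10.23 and 10.54 in HMW. Total was again on top in every condition, with HMW minus Total at -0.99 ± 0.15 (adjusted p 0.00267). The other genes called below Total in HMW were MRPL32 at -0.92, MRPS21 at -0.85, MRPL51 at -0.78, MRPS33 at -0.61, MRPS6 at -0.52 and MRPL18 at -0.50. MRPS33, MRPS6 and MRPL18 lost this call without WT 10 Gy, 4GKD mock or 4GKD 10 Gy. Their adjusted p in limma were then 0.0618 to 0.105, 0.0857 to 0.109 and 0.0665 to 0.131. MRPL32 lost it without WT 10 Gy (0.0505). In LMW, apart from MRPL42, the genes called below Total were MRPL32 at -1.23, MRPL33 at -0.84, MRPS9 at -0.72, MRPS22 at -0.66, MRPS31 at -0.65 and MRPL51 at -0.64. With the median of its probe sets MRPS31 was at -0.17 in LMW against Total (adjusted p 0.55 in limma). MRPS9, MRPS22 and MRPS31 lost the LMW call when any 1 condition was left out, with adjusted p in limma of 0.051 to 0.0961, 0.0548 to 0.121 and 0.0724 to 0.123. MRPL33 and MRPL51 lost it without WT mock (adjusted p 0.0598 and 0.0654), 4GKD mock (0.0752 and 0.174) or 4GKD 10 Gy (0.0716 and 0.188).

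The HMW against Total calls depended on single conditions: 8 were left without WT 10 Gy, 12 without 4GKD 10 Gy and 15 without 4GKD mock, and 35 were made without WT mock. Among those lost without WT 10 Gy were MRPS2 at an adjusted p of 0.0523 and MRPL4 at 0.0684 in limma, while their differences of 1.06 and 1.01 hardly moved.

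**Figure D2:**
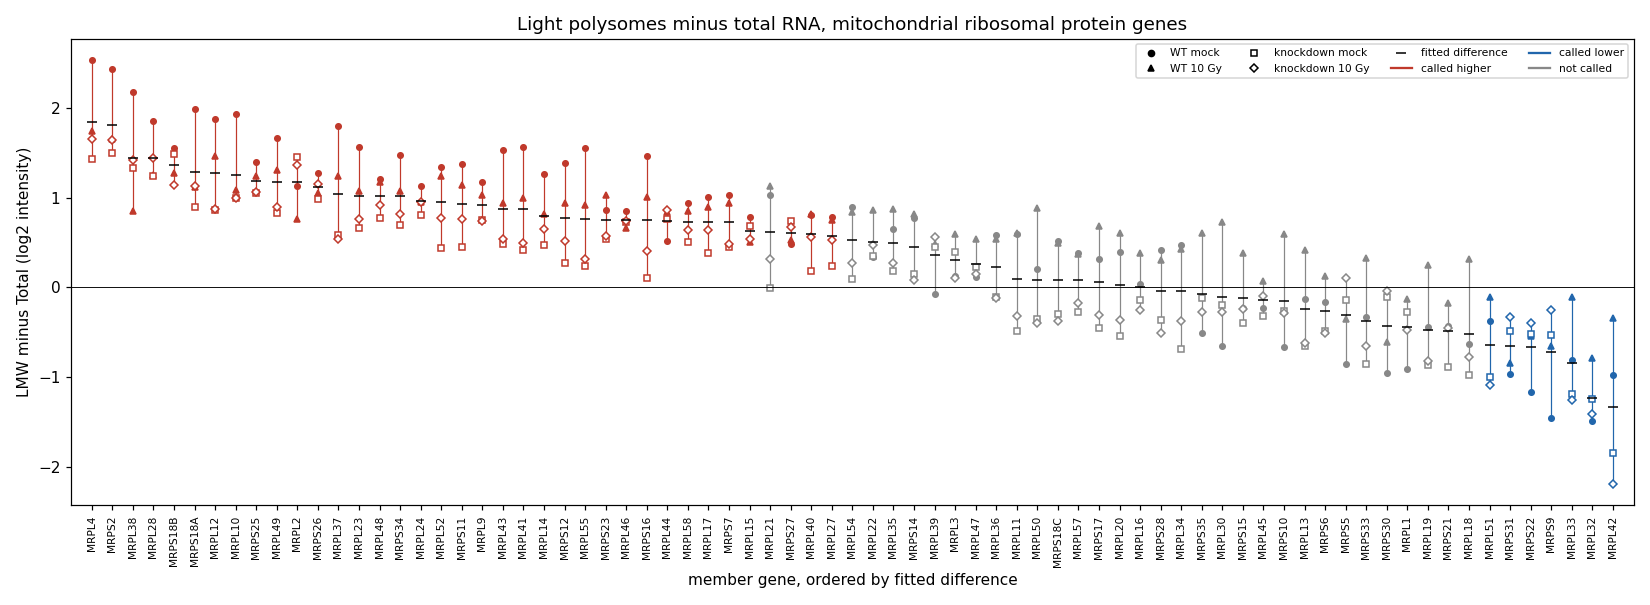
LMW minus Total in log2 intensity for the 75 genes, drawn and coloured as in the plot of heavy minus light polysomes. WT mock (filled circles) is the highest point for many of the 36 genes called higher, from MRPL4 at 1.84 downwards, and MRPL42 at -1.34 is the lowest.

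**Figure D3:**
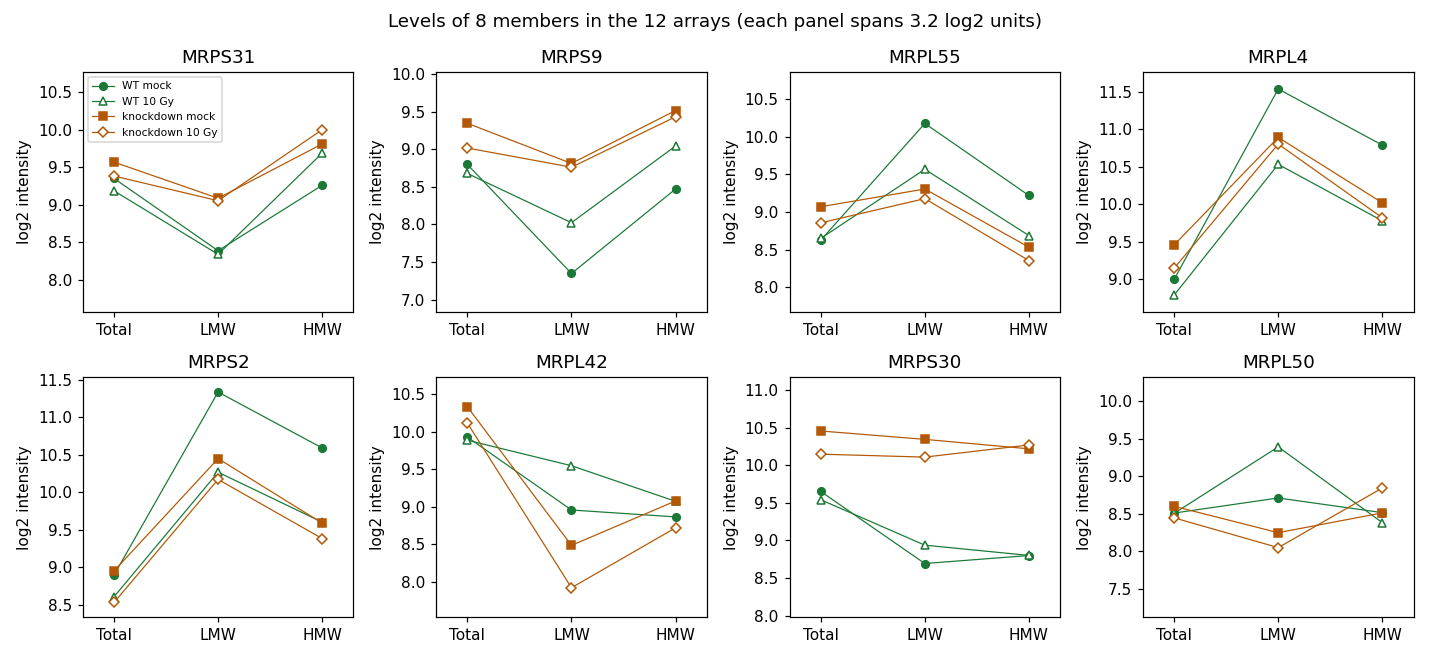
Log2 intensity of 8 genes in the 12 arrays, Total, LMW and HMW from left to right, with a line for each condition; every panel spans the same number of log2 units, and levels are not compared between panels. MRPL4 and MRPS2 peak in LMW in all conditions, MRPS31 and MRPS9 dip there, and MRPL50 peaks in WT and dips in 4GKD.

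Set beside the ribosomal proteins of cytosolic ribosomes and the nuclear genes of the respiratory chain, the counts were these, with no test between the lists. HMW was lower than LMW for 4 of 56 cytosolic ribosomal protein genes and 29 of 67 respiratory chain genes, with medians of -0.06 and -0.30. LMW was called above Total for 5 and below it for 25 of the cytosolic genes (median -0.28). For the respiratory chain genes these calls were 20 and 13 (median 0.05). The mitoribosomal protein genes, with 36 called above and 7 below, had the highest median of the 3 lists, 0.53.

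Genes of the same pathway did not all follow. Of 14 measured mitochondrial translation factors, 5 were higher and 2 lower in HMW than in LMW. LRPPRC, which stabilises mitochondrial mRNAs, was highest at 2.09, followed by the initiation factor MTIF2 at 1.18, and TACO1 at -0.51 and the elongation factor TUFM at -0.49 were lowest. Of 22 genes for assembly of the mitochondrial ribosome or modification of its RNA, 6 were lower and 1 higher, with MTERF3 at 0.59 and DHX30 at 0.54 highest and MPV17L2 at -0.85 and MTG1 at -0.67 lowest. DHX30 did not pass (adjusted p 0.179 in limma). In LMW against Total 15 of these 22 genes were higher, led by MTG2 at 1.41 and RCC1L at 1.34, and 2 were lower, FASTKD2 at -1.06 and MTERF3 at -0.71. A further 5 measured genes with other symbols code for proteins of the mitoribosome or, for OXA1L, bound to it. Of these, PTCD3 at 0.47 was higher in HMW than LMW, and GADD45GIP1 at -0.66 and OXA1L at -0.37 were lower. CHCHD1 at -0.46 and DAP3 at 0.21 did not pass.

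The heavy-to-light difference ran with gene size. Across the 75 genes, Spearman's rho between the span of the gene in RefSeq and HMW minus LMW was 0.48, and across 10154 genes tested with a span it was also 0.48. The 37 genes with the shorter spans (median 4709 bases) had a median HMW minus LMW of -0.47, and the 38 longer ones (median 17619 bases) one of -0.14. MRPL41, among the lowest, spans 677 bases on chromosome 9, and MRPL1, among the highest, spans 89956 bases on chromosome 4. Gene span includes introns and is not the length of the coding sequence. The points share the same arrays, and genes are not independent replicates.

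A share of these mRNAs was higher in total RNA of 4GKD than of WT cells. In the 4 Total arrays, 25 of the 75 genes rose and 1 fell with the knockdown in limma, 33.3% and 1.33%, where 20.7% and 19.8% of all genes tested were called. The median was 0.14 (1.1-fold) and that of all genes 0.03. In this fit the only residual is how far the genotypes differ in their answer to radiation, 1 degree of freedom, so calls lean on the spread shared across genes. A fit of all 12 arrays, in which the polysome arrays add to the spread, called 0 of the 75 genes, and 8 had an unadjusted p under 0.05.

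MRPS5 was highest, a small-subunit protein with a bacterial counterpart. Its Total values were 9.26 in WT mock, 9.09 in WT 10 Gy, 10.01 in 4GKD mock and 9.80 in 4GKD 10 Gy. Both 4GKD arrays lay above both WT arrays, by 0.73 ± 0.10 (1.65-fold, adjusted p 0.000329). A further probe set of the gene gave 0.81.

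MRPS30, a large-subunit protein in spite of its name, read 9.65, 9.54, 10.46 and 10.15 in Total, in the same order. The genotypes did not overlap and the difference was 0.71 ± 0.10 (adjusted p 0.000409). A weaker probe set of MRPS30, at 6 or more in 10 of the arrays, gave -0.35, so the direction depends on the probe set. MRPL40 at 0.66, MRPL52 at 0.62, MRPS16 at 0.57 and MRPS17 at 0.54 followed, all called. For MRPS16 a second probe set gave 0.03 (adjusted p 0.853 in limma), and the median of its probe sets 0.30 (0.0546).

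MRPL47, near the exit tunnel, was the only gene called lower. It read 11.13 and 10.96 in the WT arrays and 10.60 and 10.35 in the 4GKD arrays, mock before 10 Gy. The genotypes did not overlap, and the difference was -0.57 ± 0.08 (1.48-fold, adjusted p 0.000595). MRPS26 came next, with 10.04 and 9.71 in WT and 9.84 and 9.40 in 4GKD. Its genotypes overlapped, and -0.26 ± 0.10 did not pass (adjusted p 0.0592). MRPS6 at -0.22, MRPL16 at -0.19, MRPS28 at -0.18 and MRPS27 at -0.14 did not pass either.

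Of the genes with other symbols for proteins of the mitoribosome or bound to it, DAP3 at 0.68, GADD45GIP1 at 0.44, CHCHD1 at 0.37 and OXA1L at 0.35 rose in Total with the knockdown. PTCD3 at 0.20 did not pass. Of the cytosolic ribosomal protein genes 29 of 56 rose and 1 fell, and of the respiratory chain genes 26 of 67 rose and 6 fell.

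**Figure D4:**
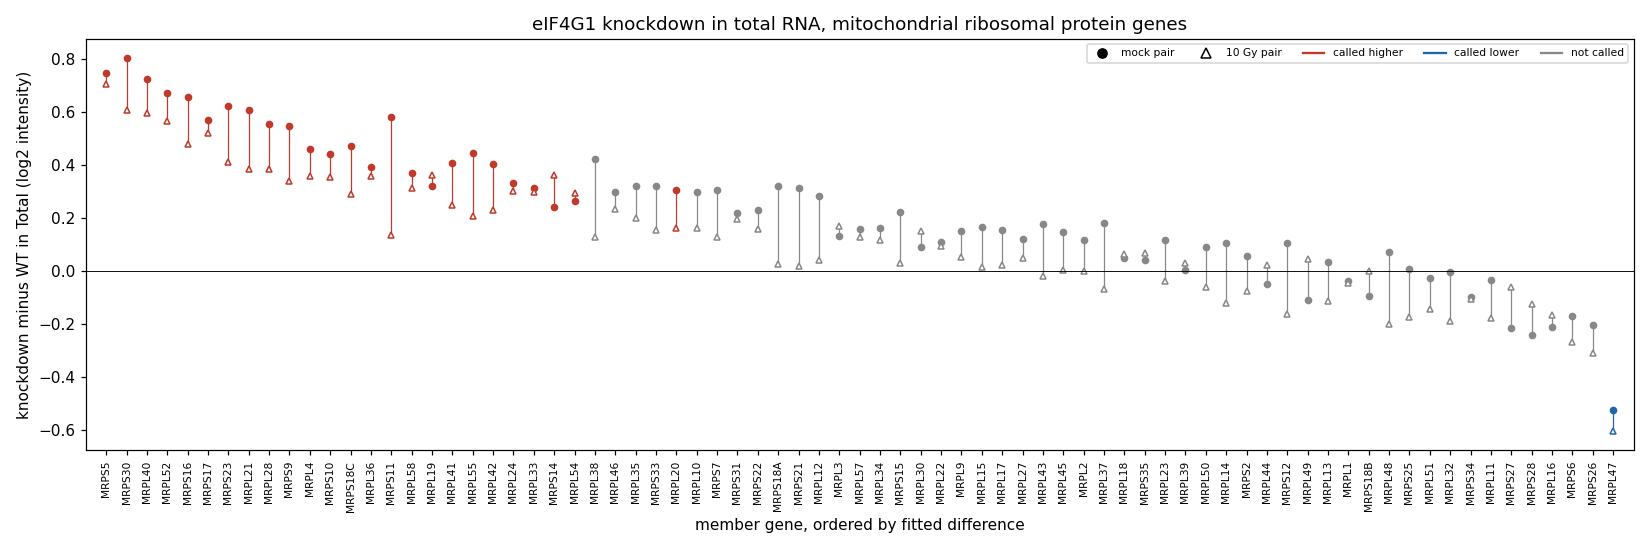
Log2 intensity of 4GKD minus WT in total RNA for the 75 genes, in the mock pair (filled circle) and the 10 Gy pair (open triangle), ordered by the fit and coloured by the limma call. The mock pair is the higher of the 2 for 61 genes, and MRPL47 stands alone at -0.57.

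In the polysome pools few of these genes passed for the knockdown, and the fit there took its spread wholly from all genes. In LMW the knockdown raised MRPS30 by 1.41 ± 0.46 and MRPS5 by 1.32 ± 0.47 while MRPS12 fell by 0.80 (adjusted p 0.0203, 0.0368 and 0.0288 in limma). That is 2 genes higher and 1 lower, 2.67% and 1.33%, with 10.3% and 5.1% of all genes. In HMW it raised MRPS30 by 1.45 ± 0.40 (adjusted p 0.00592) while MRPS12 fell by 0.90 ± 0.30 (adjusted p 0.0327), 1 gene each way, with 5.82% and 4.09% of all genes. These calls were sensitive to the processing. With the median of probe sets MRPS30 was at 0.95 in LMW and 0.80 in HMW (adjusted p 0.0631 and 0.22 in limma), and MRPS5 at 0.63 in LMW (0.267). In LMW MRPS5 also lost the call with no filter (0.0697) and cyclic loess (0.0577). MRPS12 lost it in LMW with no filter (0.0757), cyclic loess (0.147) and no variance trend (0.185), and in HMW with no trend (0.146). Its other probe sets also fell, by values from -0.47 to -1.83 in LMW and from -0.45 to -1.73 in HMW. For MRPS5 another probe set, at 6 or more in all 12 arrays, gave 1.27 in LMW. Further MRPS5 probe sets, below 6 in all arrays, gave 0.02 and -0.05 there and entered the median.

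MRPS30 read 8.69 and 8.94 in WT LMW and 10.35 and 10.11 in 4GKD LMW, and 8.80 and 8.80 in WT HMW and 10.22 and 10.27 in 4GKD HMW. The genotypes did not overlap in either pool. MRPS12 read 12.67 and 12.09 in WT LMW, 11.66 and 11.50 in 4GKD LMW, 12.01 and 11.29 in WT HMW and 10.82 and 10.68 in 4GKD HMW. It was lower in 4GKD in each pool, while its Total values of 11.28, 11.15, 11.39 and 10.99 overlapped.

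The median over the 75 genes was -0.33 in LMW and -0.10 in HMW, against -0.0017 and -0.0049 for all genes. The LMW medians of the mock and 10 Gy pairs were -0.33 and -0.33, and the HMW medians -0.25 and 0.04. Below the MRPS30 and MRPS5 values in LMW came MRPS9 at 1.10, MRPS31 at 0.71, MRPS22 at 0.59 and MRPL2 at 0.52, and the lowest were MRPL11 at -1.11, MRPL42 at -1.05, MRPS28 at -0.99, MRPL50 at -0.90, MRPL37 at -0.90 and MRPL51 at -0.89. None of these 10 passed. In the fit of all 12 arrays MRPS9, MRPL51, MRPL37, MRPS28, MRPL42 and MRPL11 did (adjusted p from 0.014 to 0.0431 in limma). MRPS31, MRPS22, MRPL2 and MRPL50 did not pass there either. In HMW MRPS5 at 1.04, MRPS9 at 0.72, MRPS22 at 0.66, MRPL19 at 0.53 and MRPL33 at 0.52 were next highest. MRPL11 at -0.76, MRPL37 at -0.76, MRPL12 at -0.76, MRPS2 at -0.61 and MRPS34 at -0.59 were lowest after MRPS12, and none of them passed.

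The heavy-to-light difference itself changed with the knockdown for 7 genes, all upward, 9.33% of the 75. Of all genes tested 5.33% were called higher and 10.5% lower. MRPL50, a mitochondria-specific protein, had HMW minus LMW of -0.19 and -1.01 in WT (mock, 10 Gy) and 0.26 and 0.79 in 4GKD. MRPL33 had -0.44 and -0.84 in WT and 0.17 and 0.51 in 4GKD. MRPL42 had -0.09 and -0.47 in WT and 0.59 and 0.80 in 4GKD. In all 3 the light pool was the higher in both WT pairs and the heavy pool in both 4GKD pairs.

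The fitted changes were 1.13 ± 0.31 for MRPL50, 0.98 ± 0.25 for MRPL33 and 0.98 ± 0.28 for MRPL42, with adjusted p of 0.0116, 0.00789 and 0.0172 in limma. Other probe sets measured in all arrays gave 1.09 for MRPL50 and 1.33 for MRPL42. MRPL19 at 0.93, MRPL51 at 0.90, MRPL13 at 0.78 and MRPS21 at 0.70 also passed. Without a variance trend MRPL50, MRPL33, MRPL51 and MRPL13 lost the call (adjusted p 0.0515, 0.0515, 0.0653 and 0.111 in limma), as did MRPL50 and MRPL13 with the median of probe sets (0.0582 and 0.0634). MRPL13 has 1 probe set, so its own value of 0.78 was the same in that setting. The lowest were MRPL44 at -0.55, MRPL28 at -0.43, MRPL2 at -0.42, MRPS9 at -0.39, MRPL39 at -0.36 and MRPS5 at -0.28, none called. With Total in place of LMW as the reference, 0 genes were called in limma, 4 had an unadjusted p under 0.05, and the median went from 0.13 to -0.25.

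The order of the pools was opposite in the genotypes for further genes: MRPL13, MRPL18, MRPL30, MRPL51 and MRPS33 were lower in HMW than LMW in both WT pairs and higher in both 4GKD pairs, and MRPL44 the reverse. Some of these values lay near 0, such as 0.0095 for MRPS33 and 0.09 for MRPL30 in 4GKD mock. How many of all genes tested changed order in this way was not counted, so it is not shown to be particular to these genes. For MRPL18, MRPL30, MRPS33 and MRPL44 the difference between genotypes did not pass. Of 38 further probe sets of these genes that were measured, 5 had HMW minus LMW of the other sign than the chosen one, in MRPL30, MRPL35, MRPL50, MRPS15 and MRPS5. Of the cytosolic ribosomal protein genes 21 of 56 had a higher heavy-to-light difference in 4GKD and none a lower one, and of the respiratory chain genes 19 of 67 and 3.

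After 10 Gy no gene passed in any preparation. In Total limma called 0 of the 75 genes, and 0.177% of all genes, but 20 had an unadjusted p under 0.05, all lower. That is 26.7% of them, and 12.8% of all genes tested. The difference was below 0 for 70 of the 75, and for 58.4% of all genes, with a median of -0.14 against -0.03 for all genes, and the medians were -0.10 in WT and -0.20 in 4GKD. The lowest were MRPL11 at -0.39, MRPS26 at -0.38, MRPL48 at -0.38, MRPS2 at -0.35, MRPL12 at -0.33 and MRPL54 at -0.30, with adjusted p from 0.151 to 0.228. MRPL10 at 0.06, MRPL33 at 0.03, MRPS6 at 0.02, MRPL49 at 0.01 and MRPL51 at 0.0020 were highest, followed by MRPS10 at -0.03.

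In LMW and in HMW limma called 0 of the 75 genes for 10 Gy, with 0 at an unadjusted p under 0.05, and 0.374% and 0.473% of all genes. For the change in heavy-to-light difference it called 0, again with 0 at an unadjusted p under 0.05, and 0% of all genes. The medians were -0.09 in LMW, -0.13 in HMW and -0.06 in the difference. In LMW the values ran from 0.58 for MRPS10, 0.58 for MRPL30 and 0.48 for MRPL18, through MRPL33 at 0.35, MRPS33 at 0.33 and MRPS35 at 0.33, down to MRPS18A at -0.43, MRPL37 at -0.49, MRPL12 at -0.53, MRPL4 at -0.55, MRPS2 at -0.67 and MRPL38 at -0.73. In HMW MRPL30 at 0.40, MRPL32 at 0.39, MRPL16 at 0.33, MRPL33 at 0.32, MRPS31 at 0.31 and MRPS9 at 0.24 were highest. The lowest were MRPL12 at -0.64, MRPL4 at -0.60, MRPS2 at -0.60, MRPL37 at -0.53, MRPL28 at -0.44 and MRPL11 at -0.43. For the difference, the ends were MRPL16 at 0.42, MRPL38 at 0.36, MRPS31 at 0.35, MRPL10 at 0.25, MRPS18B at 0.19 and MRPL32 at 0.19, and MRPS10 at -0.36, MRPS15 at -0.34, MRPL18 at -0.28, MRPS22 at -0.26, MRPL45 at -0.25 and MRPL51 at -0.25.

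Within each genotype the response to 10 Gy compares 1 array with 1 and has no test. In WT LMW, MRPL30 at 1.28 and MRPS10 at 1.27 were at least 2-fold higher, and MRPL38 at -1.30, MRPS2 at -1.07 and MRPL4 at -1.0 at least 2-fold lower. Among all genes 15.9% were that much higher and 4.14% lower. In WT HMW, MRPL4 at -1.01 was the only one of the 75 past 2-fold, where 15.8% of all genes were higher and 2.2% lower. In the 4GKD pools and in Total of either genotype none of the 75 genes changed 2-fold. Among all genes 0.0788% were that much higher and 0.00985% lower in WT Total, and 0.0197% and 0.945% in 4GKD Total. In the 4GKD pools these were 0.226% and 1.1% in LMW and 0.335% and 0.512% in HMW.

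**Figure D5:**
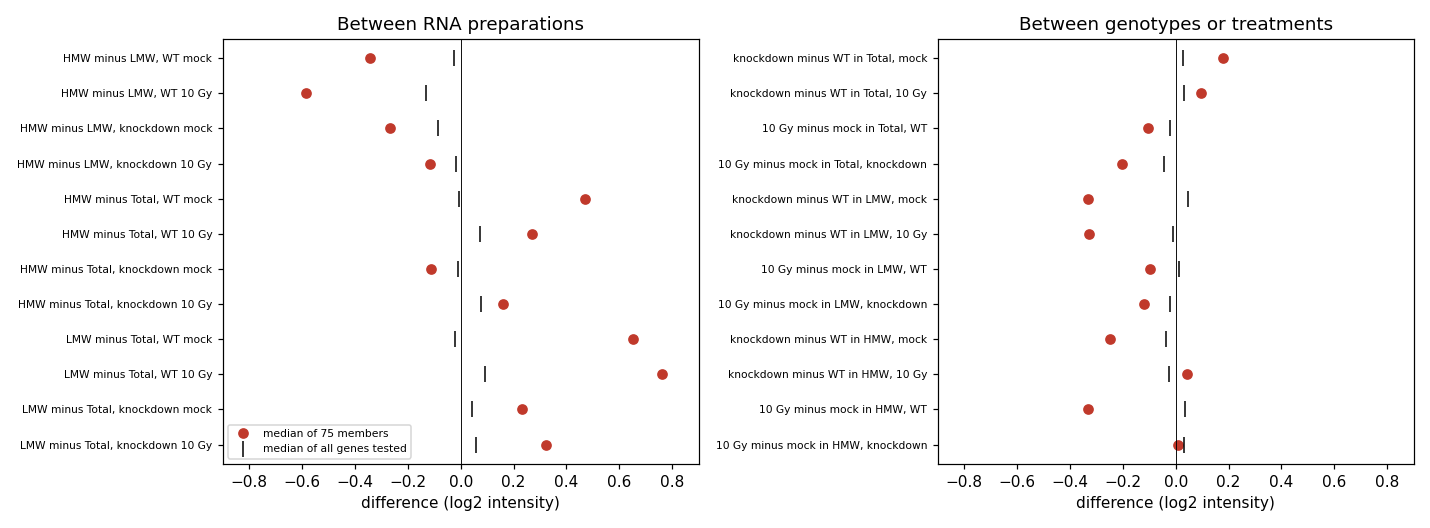
Median difference in log2 intensity over the 75 genes (filled circle) and over all genes tested (bar) in each pair of arrays, between preparations at the left and between genotypes or treatments at the right; no error is drawn because each pair is 1 array against 1. The LMW minus Total medians run from 0.23 to 0.76 and the HMW minus LMW medians from -0.58 to -0.12, each on the same side of the all-gene bar in all 4 conditions.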

How the data were processed

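RNA from MCF10A cells was measured on 12 expression arrays, 1 for each of 4 conditions in LMW, HMW and Total. The authors deposited probe set intensity values on a linear scale, made with RMA per the submitters' processing notes; the version, and which arrays were normalised jointly, are not stated in the sources used here. RMA commonly equalises the arrays' distributions, so a difference is relative to the other genes of the array; the array medians were 22.6 to 24.4. Intensities were turned to log2.

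Of 54675 probe sets, 41097 had 1 symbol in the platform annotation, 1801 several, and 11777 were not listed. Each gene took its probe set with the highest mean, and genes reaching log2 6 on 4 or more arrays were kept, 10157 of 19775. limma 3.58.1 in R 4.3.3 (eBayes with a trend) was used with Benjamini-Hochberg adjustment at 0.05 over all 10157. Preparations were compared over 8 arrays with the condition as a block (3 residual degrees of freedom). Knockdown and 10 Gy were fitted together on the 4 arrays of a preparation, or on the 4 differences HMW minus LMW (1 residual degree). For LMW and HMW alone, limma's prior degrees of freedom were infinite, so a gene's own spread did not enter its p.

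In simulated data with 200 genes changed 2-fold, limma recovered 89% when HMW was compared with LMW, 80% and 51.5% when HMW and LMW were compared with Total, and for the knockdown 100% in Total and 17% in LMW. False calls were 4.21% to 19% of calls, with 19% for the knockdown in LMW and 13.8% for the knockdown in Total.

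The genes, the other lists and the tests were chosen with earlier results of these data known. Named are the 6 highest and 6 lowest genes of each comparison, called genes against the majority where there are 10 or fewer, genes with pools in opposite order in the genotypes or with another probe set of opposite sign, and the 2 highest and 2 lowest of other lists. Single pairs past 2-fold were named after their values were seen. Protein length was not analysed here, and gene span, also added after seeing values, was used as a description in its place. The number of arrays limits the precision.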

Additional observations from a re-analysis of the deposited data

Results flagged for a closer look

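In 7 genes the difference of HMW minus LMW between 4GKD and WT passed in limma. It was 1.13 for MRPL50, 0.98 for MRPL33, 0.98 for MRPL42, 0.93 for MRPL19, 0.90 for MRPL51, 0.78 for MRPL13 and 0.70 for MRPS21. Of these, MRPL50, MRPL33, MRPL42, MRPL51 and MRPL13 had the light pool higher in both WT pairs and the heavy pool higher in both 4GKD pairs, and MRPL19 was higher in HMW in all 4 pairs.

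MRPL18 at 0.61, MRPL30 at 0.57 and MRPS33 at 0.61 showed the same change of order, and MRPL44 at -0.55 the opposite one, without passing limma (adjusted p 0.082, 0.176, 0.106 and 0.19). The share of all genes with such a change of order was not counted.

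The median over the 75 genes had opposite signs in some pairs of single arrays. For 10 Gy minus mock in HMW it was -0.33 in WT and 0.0079 in 4GKD, where 39 genes were above and 36 below 0 and the median of all genes was 0.033. For 4GKD minus WT in HMW it was -0.25 in the mock pair and 0.044 in the 10 Gy pair. These differences between medians were not tested. The WT mock HMW array enters the negative value of each, so they are not separate.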

How the results depend on the processing

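Without probe sets that can cross-react by name (36 of the 75 genes left), limma called 18 between HMW and LMW, 13 between HMW and Total, 23 between LMW and Total, 12 for the knockdown in Total, 1 in LMW, 1 in HMW and 2 for HMW minus LMW. Without the condition block HMW against LMW gave 0 (24 at an unadjusted p under 0.05). Leaving out each condition gave 20 to 36 calls between HMW and LMW, 8 to 35 between HMW and Total and 30 to 37 between LMW and Total. The knockdown in Total gave 16 with the median of probe sets, 17 without a trend and 0 with all 12 arrays (8 unadjusted). The knockdown in LMW gave 1 with no filter, 1 with cyclic loess and 14 with all arrays. In HMW the median of probe sets gave 1, and no trend 1. For its HMW minus LMW these gave 4 and 2, and Total as reference 0 (4 unadjusted). Counts for 10 Gy stayed at 0 in all alternatives run. The share of all genes called in each alternative was not set beside these counts, here or above. They therefore do not compare the 75 genes with other genes. In single genes named, 802 values stayed on their side of the threshold, 77 lost and 14 gained a call, and 17 changed sign. The causes were not tested.

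Signs changed as follows. With the median of probe sets, MRPS30 for the knockdown in Total was -0.35, MRPL2 for the knockdown in HMW minus LMW 0.0024, and MRPS15 for 10 Gy in HMW minus LMW 0.061. With cyclic loess MRPS10 for 10 Gy in Total was 0.0059, and the median for 10 Gy in HMW minus LMW 0.0035. From the 10 Gy pair alone the knockdown median in HMW was 0.044, from the mock pair alone that in HMW minus LMW was -0.058, and the 10 Gy medians from the WT and the 4GKD pair were -0.33 and 0.0079 in HMW and -0.21 and 0.14 in HMW minus LMW. With Total as reference, the knockdown median was -0.25, MRPL42 -0.39, MRPL13 -0.0094, MRPS5 0.31, MRPS9 0.27 and MRPL2 0.045. For 10 Gy the median was then 0.038, MRPL38 -0.26, MRPL10 -0.18, MRPS18B -0.12, MRPL45 0.0074, MRPS22 0.12, MRPL18 0.30, MRPS15 0.038 and MRPS10 0.25. The labels carry no replicate numbers, so the condition block is the pairing used. A left-out pair leaves the 4-array comparisons without residual degrees of freedom, so only medians are given. Without the filter all genes had a median of 0.16 for HMW and 0.24 for LMW against Total. Simulated 2-fold changes on 4 arrays were recovered at 17% for the knockdown in LMW and 8.5% for 10 Gy in LMW, but at 100% and 99.5% in Total, where the median standard error over all genes was 0.11 against 0.42 in LMW.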

Other observations

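Among 9 genes of mitochondrial transcription and the nucleoid, the mitochondrial DNA-protein body, the heavy-to-light median was 0.14. MTERF1, a transcription terminator, was called higher in HMW at 0.62, and TFAM, which packages mitochondrial DNA, stood at 0.31 and did not pass in limma (adjusted p 0.38). POLG, the mitochondrial DNA polymerase, was lowest at -0.17. In LMW against Total, TFAM at -0.97 was called lower and the other 8 did not pass.

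In total RNA the knockdown lowered MRM2, a methyltransferase of mitochondrial ribosomal RNA, by -1.05, and METTL17 by -0.43. It raised YBEY, an RNA-processing factor, by 0.87 and TFB1M, a dimethyltransferase of the small ribosomal RNA, by 0.70. Of the 22 assembly and modification genes 4 rose and 4 fell. Among the translation factors SLIRP fell, at -0.64, and MTIF2 at 0.59 and MTRF1 at 0.51 were the highest of the 5 that rose.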
